A study of Mus musculus with 81 samples.

Results

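The depletion of the histone variant mH2A2 in hippocampal area CA1 was followed here in 6 of the 81 samples of the series, 3 shH2afy2 mice and 3 shScr mice, chosen by their labels as the RNA libraries of the depletion experiment with these 2 viruses. All mice were male C57BL/6J animals of about 9 to 12 weeks that were left untrained. Each received 1 µl of AAV-DJ per hemisphere in dorsal CA1, carrying either a short hairpin RNA against H2afy2 (shH2afy2) or a scrambled hairpin (shScr). In the H2afy2 vector the U6 promoter drove the hairpin and the CMV promoter drove GFP. The methods of the paper state neither these promoters nor a titre for the scramble vector. Tissue of the infected region was collected 2 weeks later and sequenced as bulk RNA, so every library holds infected and uninfected cells of several types. The comparison asks which genes change in CA1 when mH2A2 is reduced without any learning. Each library is 1 mouse, and the p-values measure the spread between mice. A further 3 mice that received a hairpin against H2afy (shH2afy) in the same experiment are used only where a difference between the 2 depletions was tested, and that vector was packaged at a lower titre than the shH2afy2 vector.

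MacroH2A histones replace the histone H2A in part of the nucleosomes and carry a large globular macro domain that lies outside the nucleosome core. H2afy encodes mH2A1 and H2afy2 encodes mH2A2, and both are abundant in silent chromatin, including the inactive X chromosome. Among the gene groups described here are those of the interferon response, in which a complex of factors that includes Stat2 and Irf9 binds the interferon-stimulated response element (ISRE) in promoters, and the immediate early genes, which neurons induce within minutes of activity through factors that include CREB at the cAMP response element (CRE).

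The total gene count per library was 15.4 to 18.8 M in shH2afy2 mice, against 9.95 to 17.0 M in shScr mice, and 3.47 to 4.26% of counts were mitochondrial in shH2afy2, against 3.87 to 6.25% in shScr. Levels are given in CPM, the counts of a gene relative to the size of its library, scaled by TMM over all 9 libraries of the experiment. The labelled tissue was checked with 16 marker genes of CA1 pyramidal neurons, all of which were measured, with summed levels of 8640, 6378 and 7653 CPM in shH2afy2 and 9373, 7508 and 6427 CPM in shScr mice. A pair of libraries stood apart in marker genes of other cells. In shH2afy2 replicate 2, the B and plasma cell markers summed to 457.2 CPM (21.0 and 14.0 in replicates 1 and 3, against 13.1, 30.2 and 13.7 CPM in shScr). In shScr replicate 3, which was also the shallowest library, 13 markers of striatal projection neurons, a list written after their levels had been seen, summed to 2410 CPM, against 304 to 324 CPM in the other shScr mice and 228 to 255 CPM in shH2afy2 mice. All 13 were highest there, with the dopamine receptor Drd2 at 62.9 CPM (3.46 and 3.49 in the other shScr mice) and the adenosine receptor Adora2a at 96.9 CPM (1.39 and 1.56). Many results below, though not all, are therefore also given without shH2afy2 replicate 2, and some without shScr replicate 3. A value given only with all mice may move as well. The log2 fold change of the MHC class I gene H2-K1, for example, was 2.91 with all mice and 1.67 without shH2afy2 replicate 2.

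Promoter sequences of 4 interferon-responsive genes and 2 immediate early genes, on which the results below turn, are printed first. Each window runs from 250 bases before to 50 bases after the gene start, 300 bases in all, from RefSeq on GRCm38.p6, 5′ to 3′ on the strand of the gene. In the first 4, capitals mark matches to an ISRE-type pattern, 2 copies of GAAA separated by any 2 bases on either strand, with overlapping matches merged into 1 run, and in the last 2 they mark the core of the CRE, TGACG on either strand. Gbp3 has 2 annotated starts and Egr2 has 5, and 1 window with a match is shown for each, whereas 1 other window of Gbp3 and 2 of Egr2, among them that of its most upstream start, held no match. A match is a description of the letters and not evidence of binding.
Rsad2, chr12:26456403-26456702 (minus strand): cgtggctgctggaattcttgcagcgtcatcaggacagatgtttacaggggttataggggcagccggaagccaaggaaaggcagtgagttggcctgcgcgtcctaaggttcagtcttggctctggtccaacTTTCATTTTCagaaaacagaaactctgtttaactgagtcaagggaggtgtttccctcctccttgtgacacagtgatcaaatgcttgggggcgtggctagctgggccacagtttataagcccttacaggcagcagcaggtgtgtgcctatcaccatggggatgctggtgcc
Ifit1, chr19:34640639-34640938 (plus strand): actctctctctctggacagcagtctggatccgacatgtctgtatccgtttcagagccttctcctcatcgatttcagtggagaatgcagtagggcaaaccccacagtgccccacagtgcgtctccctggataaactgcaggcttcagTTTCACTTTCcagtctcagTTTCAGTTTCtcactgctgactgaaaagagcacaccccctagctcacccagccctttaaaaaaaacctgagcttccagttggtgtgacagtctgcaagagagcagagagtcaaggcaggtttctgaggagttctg
Isg15, chr4:156200769-156201068 (minus strand): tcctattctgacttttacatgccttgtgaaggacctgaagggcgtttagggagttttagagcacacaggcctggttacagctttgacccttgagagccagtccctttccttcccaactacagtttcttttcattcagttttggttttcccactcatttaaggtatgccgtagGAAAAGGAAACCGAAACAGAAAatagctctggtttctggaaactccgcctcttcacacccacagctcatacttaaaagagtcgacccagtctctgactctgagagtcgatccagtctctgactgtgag
Gbp3, chr3:142559794-142560093 (plus strand): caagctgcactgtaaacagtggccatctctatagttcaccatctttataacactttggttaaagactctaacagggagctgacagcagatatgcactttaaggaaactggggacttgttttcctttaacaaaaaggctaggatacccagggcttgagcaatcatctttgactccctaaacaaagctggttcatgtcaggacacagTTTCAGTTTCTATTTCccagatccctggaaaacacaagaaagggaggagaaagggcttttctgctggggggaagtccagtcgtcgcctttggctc
Fos, chr12:85473640-85473939 (plus strand): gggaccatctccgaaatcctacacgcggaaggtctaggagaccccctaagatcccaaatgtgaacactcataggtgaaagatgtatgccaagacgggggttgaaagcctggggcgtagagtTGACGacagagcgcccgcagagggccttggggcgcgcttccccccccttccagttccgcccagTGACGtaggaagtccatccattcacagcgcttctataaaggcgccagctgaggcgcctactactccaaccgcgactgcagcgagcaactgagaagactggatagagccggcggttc
Egr2, chr10:67537619-67537918 (plus strand): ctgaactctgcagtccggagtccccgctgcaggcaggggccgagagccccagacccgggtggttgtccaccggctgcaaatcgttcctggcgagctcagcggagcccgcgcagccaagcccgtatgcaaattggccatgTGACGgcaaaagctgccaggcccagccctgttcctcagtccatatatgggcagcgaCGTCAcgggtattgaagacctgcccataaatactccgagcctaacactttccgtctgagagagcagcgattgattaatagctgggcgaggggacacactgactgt

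The first matches began 120 bases before the gene start in Rsad2 (offset -120), at -104 in Ifit1, at -78 in Isg15 and at -45 in Gbp3. The ISRE-type pattern stood in the promoter of 14 of 26 genes of the interferon list with a RefSeq window (53.8%), of 8 of 9 guanylate-binding proteins and related GTPases (88.9%) and of 5 of 16 MHC class I genes (31.2%). It stood in 3.44% of all 32851 RefSeq promoters and in any promoter of 3.61% of 11560 genes tested here. The CRE core stood in 20 of 29 immediate early genes (69%), against 34% of the genes tested, and the full palindrome TGACGTCA in 4 of 29 (13.8%), against 3.47%. These shares describe the lists, whose members were not chosen on sequence.

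H2afy2, the target (chr10:61738665-61784147, minus strand), measured 13.3, 8.07 and 7.58 CPM in shH2afy2 replicates 1 to 3 and 18.3, 18.7 and 19.0 CPM in shScr mice. The groups did not overlap, and replicate 1 lay nearest to the controls, with 71.1% of the shScr mean where replicates 2 and 3 had 43.2 and 40.6%. On average 51.7% of the shScr level remained in the tissue, a log2 fold change of -0.95 (SE 0.22, edgeR adjusted p = 0.0907, DESeq2 adjusted p = 0.0066). The exact two-sided permutation test gave p = 0.1, the smallest that the 20 regroupings of 3 and 3 mice allow. With edgeR its adjusted p was 0.191 without shH2afy2 replicate 2 and 0.241 without shScr replicate 3. H2afy, the other macroH2A gene (chr13:56073619-56136361, minus strand), measured 72.2, 65.1 and 66.2 CPM in shH2afy2 mice, all above the 60.9, 58.3 and 52.9 CPM of shScr mice, with a log2 fold change of 0.24 that did not pass (SE 0.08, edgeR adjusted p = 0.17).

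Among 18 measured genes of histone variants and their partners, 5 were called by edgeR at an adjusted p under 0.1, 2 higher and 3 lower, H2afy2 included. H2afv, which encodes the H2A.Z.2 variant, fell to 20.6, 17.9 and 16.8 CPM in shH2afy2, against 32.1, 31.7 and 39.0 CPM in shScr mice (log2 fold change -0.89, SE 0.13, edgeR adjusted p = 0.0714). H2afz, which encodes the other H2A.Z protein, had a log2 fold change of 0.02. Epop, a partner of the Polycomb repressive complex PRC2, fell to 32.8, 30.2 and 30.2 CPM in shH2afy2, against 68.1, 62.4 and 58.1 CPM in shScr mice (log2 fold change -1.01, SE 0.09, edgeR adjusted p = 0.0425). The study lists Epop as lower in both depletions from these libraries, so its fall is no independent evidence. Hist1h1c, which encodes a linker histone H1, and Hist1h2bc, which encodes an H2B, rose. Hist1h1c measured 47.5, 90.0 and 61.9 CPM in shH2afy2, against 31.0, 17.0 and 26.7 CPM in shScr mice (log2 fold change 1.43, SE 0.29, edgeR adjusted p = 0.0794). Histone genes are near-identical copies, and how shared reads were assigned could move their values. In the plot of these genes, replicate 1 is the shH2afy2 mouse nearest to the controls for every gene drawn except H2afy.

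**Figure D1:**
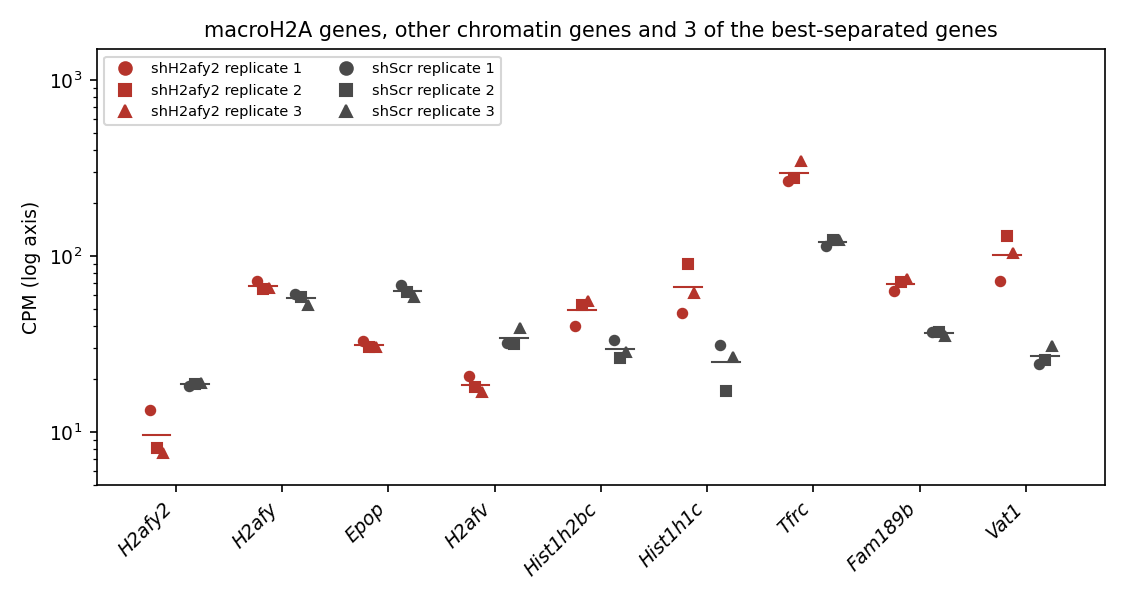
CPM of each mouse on a log axis for the macroH2A genes, other chromatin genes and 3 of the genes with the smallest p, with shH2afy2 mice in red left of shScr mice in grey, symbols for replicates and bars for group means. H2afy2 lies between 7.58 and 13.3 CPM in shH2afy2 and between 18.3 and 19.0 CPM in shScr mice, and Tfrc between 267 and 347 CPM in shH2afy2 and between 114 and 124 CPM in shScr mice.

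Across all genes the 2 tests gave very different counts. With the thresholds set at 0.01 for the adjusted p and 2 for the fold change, edgeR called 0 of 15609 genes, with 3238 at an unadjusted p under 0.05 (1632 higher and 1606 lower) and a smallest adjusted p of 0.0425, while DESeq2 at the same thresholds called 127. Of these, 88 were higher (0.547% of 16077 genes) and 39 lower (0.243%), and the groups did not overlap in 122. With edgeR at an adjusted p under 0.1, 319 genes were higher (2.04% of genes tested) and 325 lower (2.08%). In CPM the groups did not overlap with shH2afy2 higher for 13.3% of genes and with shH2afy2 lower for 12.7%. "Rose" and "fell" are used below for genes called by edgeR at 0.1 or by DESeq2 at its thresholds.

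Single libraries decided these counts, and each fit without a mouse also has 1 residual degree of freedom fewer. The edgeR count of 644 at 0.1 became 0 without shH2afy2 replicate 2, without shScr replicate 2 or without shScr replicate 3, 6 without shH2afy2 replicate 3, 554 without shScr replicate 1 and 1077 without shH2afy2 replicate 1. Without shH2afy2 replicate 2, 2632 genes had an unadjusted p under 0.05 with edgeR. DESeq2 then called 67 genes, 32 higher and 35 lower, which included 27 of the 88 higher and 15 of the 39 lower genes called with all mice. Without that mouse it gave an adjusted p to 13821 genes, against 16077 with all mice. Some of the 88 higher genes, such as Lcn2 and Cxcl10, had none and so could not be called. DESeq2 called 70 without shScr replicate 3 and 191 without shScr replicate 1. Replicate 2 was the highest of the 3 shH2afy2 mice for 67 of the 88 higher genes, at a median of 1.87 times the mean of the others, and for 41 of them at over 2 times that mean. In the 39 lower genes the same ratio had a median of 0.939. In the plot of these genes with and without that mouse, all 127 kept their direction, and 74 of the 88 higher genes had a smaller fold change without it. Both follow largely from how the genes were picked. In 122 of them the groups did not overlap, so leaving out 1 mouse could hardly reverse the direction. The kept direction is therefore no check of the calls.

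**Figure D2:**
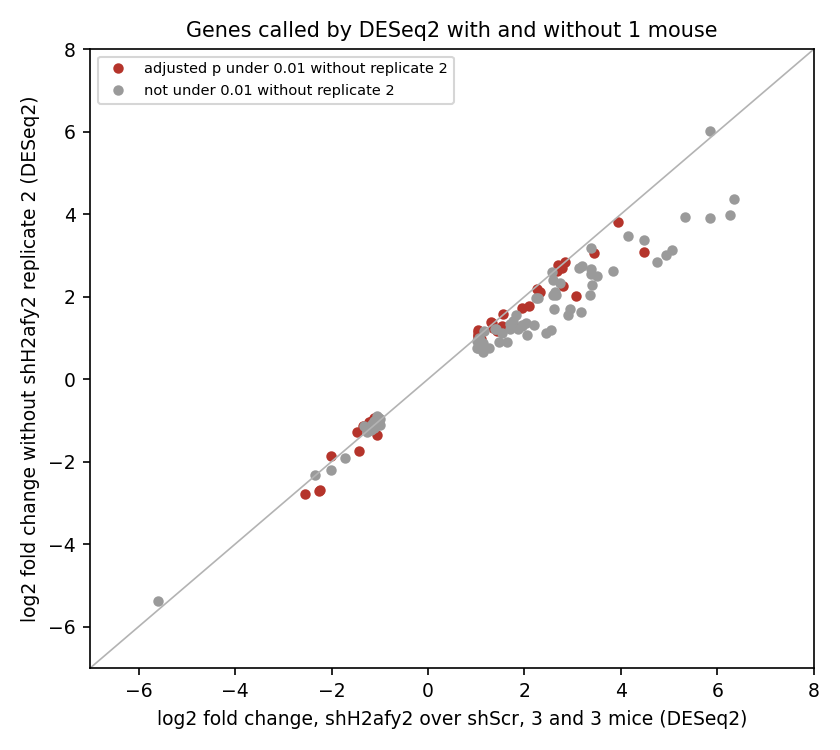
DESeq2 log2 fold changes of shH2afy2 over shScr for the 127 genes called with all mice (x axis) and without shH2afy2 replicate 2 (y axis), with the line of equal values. Red marks the 51 genes with an adjusted p under 0.01 without that mouse and grey the other 76. The grey genes include some, such as Lcn2, to which DESeq2 gave no adjusted p without that mouse. All points lie on the same side of 0 on both axes, which was largely fixed in advance for the 122 genes whose groups did not overlap. Of the 88 higher genes, 74 lie nearer to 0 on the y axis.

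The immune RNA of shH2afy2 replicate 2 was of several kinds. Igkc, the constant region of antibody light chains, measured 111 CPM there and 0 and 0.226 CPM in replicates 1 and 3, against 0, 0.125 and 0.107 CPM in shScr mice. Ighm, the heavy chain of IgM, measured 18.5, 247 and 11.5 CPM in shH2afy2 and 9.97, 27.0 and 8.11 CPM in shScr mice, so that without replicate 2 its log2 fold change of 2.6 became -0.02. Most defining markers of B cells, by contrast, were near 0 in all 6 mice, with Ms4a1 at 0.475 CPM in replicate 2. The 22 markers of T and NK cells summed to 7.71, 57.5 and 5.49 CPM in shH2afy2, against 5.20, 7.24 and 28.4 CPM in shScr mice, and the 20 of monocytes and neutrophils to 33.9, 178.6 and 42.0 CPM, against 34.7, 22.1 and 31.1 CPM. Lyz2, a lysozyme of macrophages, measured 12.8, 107 and 23.1 CPM in shH2afy2 and 17.6, 3.18 and 6.62 CPM in shScr mice, and the groups overlapped. The part of these cells in the results below was not tested. In bulk tissue, more cells of a type and more RNA per cell cannot be told apart.

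Genes of the interferon response were higher in shH2afy2 mice. All 36 measured members of the list had positive fold changes, with a median log2 fold change of 1.67 where that of all genes tested was -0.01. The groups did not overlap, with shH2afy2 higher, in 27 of the 36, edgeR called 15 and DESeq2 called 18. The median was 1.25 without shH2afy2 replicate 2 and 1.77 without shScr replicate 3. Some of these genes are among those the study lists as higher in both depletions on the same libraries, so the counts are not independent evidence.

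Among the antiviral members of the list that were called, Oasl2, Ifit1, Rsad2 and Bst2 lay above all controls in each of the 3 mice, though at different levels. Oasl2, a relative of the oligoadenylate synthetases that respond to viral RNA, measured 52.9, 39.5 and 7.53 CPM in shH2afy2, against 2.49, 1.75 and 2.35 CPM in shScr mice (log2 fold change 3.93, SE 0.70, edgeR adjusted p = 0.0739). Ifit1, which binds viral RNA, measured 22.1, 16.4 and 5.26 CPM in shH2afy2 and 2.49, 2.06 and 1.81 CPM in shScr mice (2.77, SE 0.51, edgeR adjusted p = 0.0752). Rsad2, the antiviral enzyme viperin, measured 7.22, 6.01 and 3.85 CPM in shH2afy2 and 0.900, 0.935 and 0.854 CPM in shScr mice (2.65, SE 0.31, edgeR adjusted p = 0.0714). For Rsad2, Oasl2 and Ifit1, replicate 1 and not replicate 2 was the highest mouse, replicate 3 was the lowest, and their fold changes without replicate 2 were 2.61, 3.79 and 2.67. Bst2, a membrane protein that tethers budding virus, measured 17.6, 27.5 and 6.51 CPM in shH2afy2 and 4.57, 2.18 and 1.60 CPM in shScr mice (2.61, SE 0.58, edgeR adjusted p = 0.0876).

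Irf7, Isg15 and Usp18 rose as well, while Stat2 and Irf9 were not called. Irf7, the transcription factor that amplifies interferon production, measured 15.5, 17.8 and 3.57 CPM in shH2afy2 and 1.18, 0.811 and 1.49 CPM in shScr mice (3.44, SE 0.63, edgeR adjusted p = 0.0739). Isg15, a ubiquitin-like modifier, measured 8.33, 4.80 and 1.81 CPM in shH2afy2 and 0.485, 0.998 and 1.07 CPM in shScr mice (2.56, SE 0.60, edgeR adjusted p = 0.0943). Usp18, the protease that removes Isg15 from proteins, measured 5.76, 8.28 and 2.604 CPM in shH2afy2 and 0.762, 1.06 and 0.640 CPM in shScr mice (2.72, SE 0.47, edgeR adjusted p = 0.0739). Stat2, a transducer of type I interferon signalling, had a log2 fold change of 0.16, and Irf9, its partner at the ISRE, had 1.21. At the other end of the list, Cmpk2, a mitochondrial nucleotide kinase, had 0.02 and Ifit2 0.40, with overlapping groups.

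**Figure D3:**
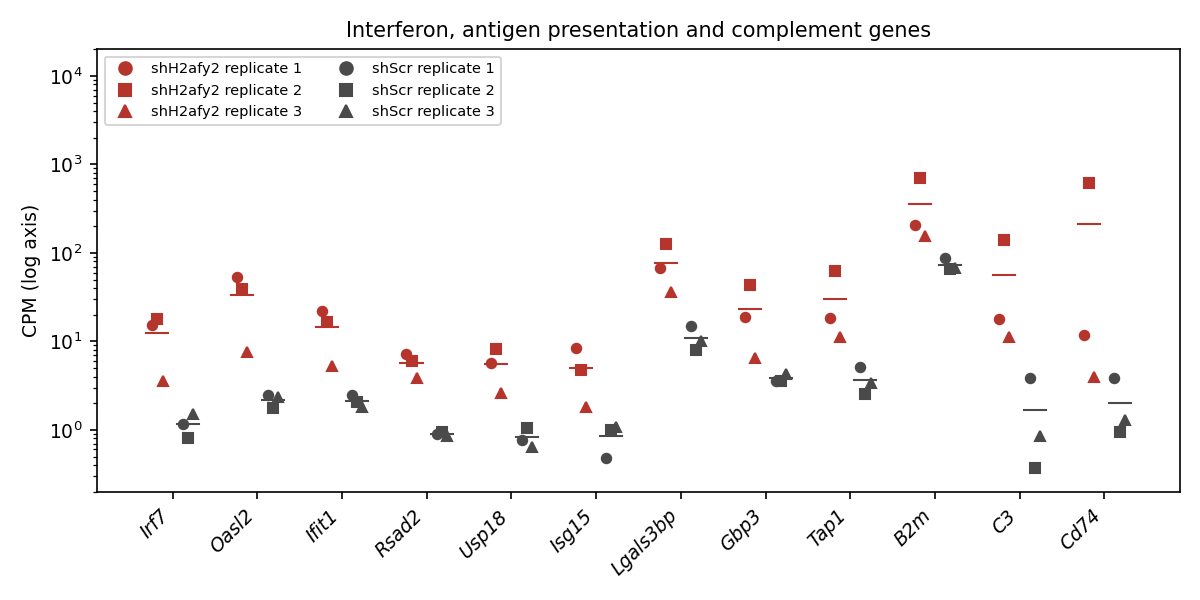
CPM of each mouse on a log axis for interferon genes, antigen presentation genes and the complement gene C3, with shH2afy2 mice in red left of shScr mice in grey and bars for group means. Replicate 1 or 2 is the highest shH2afy2 mouse for every gene drawn and replicate 3 the lowest, and for Cd74 replicate 2 stands at 623 CPM, against 11.9 and 3.96 CPM in replicates 1 and 3.

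Guanylate-binding proteins attack vacuoles that hold pathogens and are induced above all by interferon gamma. The list of these and of other immunity-related GTPases had positive fold changes in 13 of 13 measured genes. Its median of 2.77 was 1.30 without replicate 2. The groups did not overlap in 10, edgeR called 1 (Gbp3) and DESeq2 called 4. Gbp3 measured 19.0, 43.8 and 6.51 CPM in shH2afy2 and 3.60, 3.56 and 4.27 CPM in shScr mice (2.62, SE 0.63, edgeR adjusted p = 0.0976), and its fold change was 1.75 without replicate 2. Igtp, an immunity-related GTPase, measured 13.4, 75.8 and 3.68 CPM in shH2afy2 and 2.70, 2.18 and 2.88 CPM in shScr mice and was called by neither test. Genes of these families are close copies, so their single values are uncertain where reads are shared.

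MHC class I genes, which present peptides to CD8 T cells, had positive fold changes in 19 of 19, with 12 not overlapping, 5 called by edgeR and 6 by DESeq2. Their median of 2.18 was 1.03 without replicate 2. B2m, the light chain common to class I molecules, measured 207, 704 and 154 CPM in shH2afy2 and 87.3, 66.3 and 67.4 CPM in shScr mice (2.27, SE 0.55, edgeR adjusted p = 0.0976), and its fold change was 1.30 without replicate 2. H2-K1, a classical heavy chain, measured 96.4, 389 and 56.5 CPM in shH2afy2 and 29.8, 19.4 and 23.4 CPM in shScr mice (2.91, SE 0.69, edgeR adjusted p = 0.0954). Tap1, a subunit of the transporter that loads peptides, measured 18.3, 62.0 and 11.2 CPM in shH2afy2 and 5.13, 2.56 and 3.41 CPM in shScr mice (3.05, SE 0.67, edgeR adjusted p = 0.0868). Every shH2afy2 mouse thus lay above every shScr mouse for these genes, with replicate 2 at least 3 times as high as either of its group for each.

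MHC class II genes, which antigen-presenting cells use to show peptides to CD4 T cells, were carried by replicate 2. Cd74, their invariant chain, measured 11.9, 623 and 3.96 CPM in shH2afy2 and 3.81, 0.935 and 1.28 CPM in shScr mice, with a log2 fold change of 6.71 that was 1.95 without replicate 2. All 8 measured members had positive fold changes and 5 did not overlap, but edgeR and DESeq2 called 0 of them, and 5 had an unadjusted p under 0.05 with edgeR. The median of 4.67 was 1.60 without replicate 2. Of 8 measured chemokine genes, edgeR called 2 as higher. Cxcl10, which interferon induces and which attracts T cells, measured 2.08, 7.49 and 1.25 CPM in shH2afy2 and 0.485, 0.312 and 0.213 CPM in shScr mice (3.36, SE 0.80, edgeR adjusted p = 0.0944), and Ccl12, a ligand of the monocyte receptor Ccr2, measured 1.04, 2.64 and 1.19 CPM, against 0.346, 0.249 and 0.213 CPM (2.55, SE 0.52, edgeR adjusted p = 0.0818).

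Among glia, genes of activated microglia and of resting microglia both had mostly positive fold changes. Of 24 genes of activated microglia, all had positive fold changes, with a median of 0.95 (0.49 without replicate 2), 10 did not overlap, and edgeR called 3. Gpnmb, a membrane protein of phagocytes, measured 11.3, 27.2 and 13.9 CPM in shH2afy2 and 6.65, 5.99 and 3.52 CPM in shScr mice (1.69, SE 0.37, edgeR adjusted p = 0.0876), and Fcgr4, a receptor for IgG, measured 1.39, 4.06 and 1.08 CPM, against 0.277, 0.0624 and 0.320 CPM (3.38, SE 0.76, edgeR adjusted p = 0.0887). Of 12 genes of homeostatic microglia, 10 had positive fold changes with a median of 0.36 (0.09 without replicate 2), and edgeR and DESeq2 called 0, with 3 at an unadjusted p under 0.05 by edgeR. Tmem119, a surface protein of microglia, measured 30.6, 46.6 and 26.5 CPM in shH2afy2 and 23.9, 18.0 and 22.3 CPM in shScr mice, without passing. Whether the 2 microglia lists differ was not tested.

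Complement, the cascade of plasma proteins that tags cells and synapses, had positive fold changes in 12 of 12 genes, with a median of 1.40 (0.61 without replicate 2). C3, its central component (chr17:57203970-57228136), measured 18.0, 139 and 11.1 CPM in shH2afy2 and 3.81, 0.374 and 0.854 CPM in shScr mice (5.03, SE 1.23, edgeR adjusted p = 0.0992), and 3.08 without replicate 2. C1qc, a chain of C1q, measured 61.7, 124 and 50.3 CPM in shH2afy2 and 45.5, 28.8 and 33.7 CPM in shScr mice and was called by DESeq2 (1.13, DESeq2 adjusted p = 0.00974), at 0.64 without replicate 2. C4b overlapped between groups, with 104, 384 and 61.1 CPM in shH2afy2 and 70.0, 17.3 and 37.3 CPM in shScr mice.

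Reactive astrocyte genes had mostly positive and resting astrocyte genes mostly negative fold changes, and a few in each list passed. Of 21 reactive genes 18 had positive fold changes, with a median of 0.65 that was 0.22 without replicate 2, and edgeR called 2, Lcn2 and Osmr. Lcn2, a lipocalin that sequesters iron-loaded siderophores (chr2:32384633-32388252), measured 2.01, 9.02 and 1.02 CPM in shH2afy2 and 0.0693, 0.125 and 0.107 CPM in shScr mice (5.23, SE 1.11, edgeR adjusted p = 0.0835), and 3.80 without replicate 2. Osmr, the receptor of oncostatin M, measured 11.9, 21.8 and 11.5 CPM in shH2afy2 and 6.37, 2.56 and 4.59 CPM in shScr mice (1.76, SE 0.38, edgeR adjusted p = 0.0845). Of 16 genes of resting astrocytes, 13 had negative fold changes (median -0.20), and edgeR called 2 as lower. Gja1, the gap junction protein connexin 43, fell to 162, 120 and 118 CPM in shH2afy2, against 234, 221 and 243 CPM in shScr mice (-0.80, SE 0.14, edgeR adjusted p = 0.0721), and Ntsr2, a neurotensin receptor of astrocytes, to 89.2, 77.5 and 91.6 CPM, against 120, 114 and 120 CPM (-0.45, SE 0.09, edgeR adjusted p = 0.0818). For both genes all 3 shH2afy2 mice lay below every shScr mouse.

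All 18 genes of oligodendrocytes and myelin had negative fold changes, yet with all mice the groups overlapped for each of them and neither edgeR nor DESeq2 called any, with 3 at an unadjusted p under 0.05 by edgeR. Mbp, myelin basic protein, measured 1720, 2322 and 1274 CPM in shH2afy2 and 3427, 1999 and 3635 CPM in shScr mice. Here shScr replicate 2 lay below shH2afy2 replicate 2, and the list's median of -0.35 became -0.70 without shH2afy2 replicate 2. Without that mouse 14 of the 18 genes did not overlap, with shH2afy2 lower. With 2 mice against 3, groups separate more easily. Of all 15609 genes tested, 2851 did so with shH2afy2 lower, against 1987 with all mice. DESeq2 then gave adjusted p = 0.00813 for Mbp and 0.00261 for Mog, a myelin surface protein, with log2 fold changes of -1.01 and -1.05 by edgeR, whose adjusted p-values were 0.197 and 0.168. Choroid plexus genes, which mark tissue next to the ventricle, also varied between mice, summing to 168.6, 299.5 and 136.3 CPM in shH2afy2 and 502.5, 192.8 and 313.7 CPM in shScr mice. The 12 genes of dentate granule neurons, a neighbouring field, summed to 700.9, 776.7 and 705.9 CPM in shH2afy2 and 284.3, 935.3 and 593.7 CPM in shScr mice, with shScr replicate 1 lowest. The part of these differences in tissue make-up in the results was not tested.

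Some lysosomal genes and targets of p53 rose. Of 35 lysosomal genes 32 had positive fold changes, with a median of 0.41 (0.26 without replicate 2), 19 did not overlap, and edgeR called 4 as higher. Grn, the lysosomal growth factor progranulin, measured 90.7, 140 and 97.6 CPM in shH2afy2 and 52.5, 54.3 and 53.2 CPM in shScr mice (1.04, SE 0.17, edgeR adjusted p = 0.0714). Lipa, the acid lipase, measured 33.7, 47.8 and 39.7 CPM in shH2afy2 and 20.5, 21.9 and 20.9 CPM in shScr mice (0.94, SE 0.14, edgeR adjusted p = 0.0714), and Gla, an alpha-galactosidase, 22.2, 30.1 and 30.7 CPM, against 13.4, 15.7 and 14.8 CPM (0.92, SE 0.15, edgeR adjusted p = 0.0721). For Grn and Lipa replicate 2 was highest, but all 3 mice lay well above the controls.

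p53 is the transcription factor that halts the cell cycle after DNA damage. Of 18 of its targets, 13 had positive fold changes with a median of 0.65 (0.52 without replicate 2), 11 did not overlap with shH2afy2 higher, and edgeR called 8, all higher. Cdkn1a, the cell cycle inhibitor p21 (chr17:29090976-29100727), measured 31.1, 40.3 and 38.7 CPM in shH2afy2 and 3.39, 11.7 and 8.00 CPM in shScr mice (2.25, SE 0.38, edgeR adjusted p = 0.0722). Ephx1, an epoxide hydrolase, measured 41.8, 64.9 and 66.7 CPM in shH2afy2 and 25.9, 19.8 and 23.6 CPM in shScr mice (1.33, SE 0.20, edgeR adjusted p = 0.0714). Eda2r, a receptor of the TNF family, and Tnfrsf10b, a death receptor, rose by 2.05 and 2.24 on the log2 scale (edgeR adjusted p = 0.0752 and 0.0835). Their levels were low, with Eda2r at 1.18, 2.27 and 2.21 CPM in shH2afy2 and 0.346, 0.499 and 0.533 CPM in shScr mice. Members that neither test called included Mdm2, the ubiquitin ligase of p53, with a log2 fold change of -0.01 and overlapping groups, and Bax, which promotes apoptosis, with 0.13. Without replicate 2 the fold change of Cdkn1a was 2.18 and that of Ephx1 1.24.

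**Figure D4:**
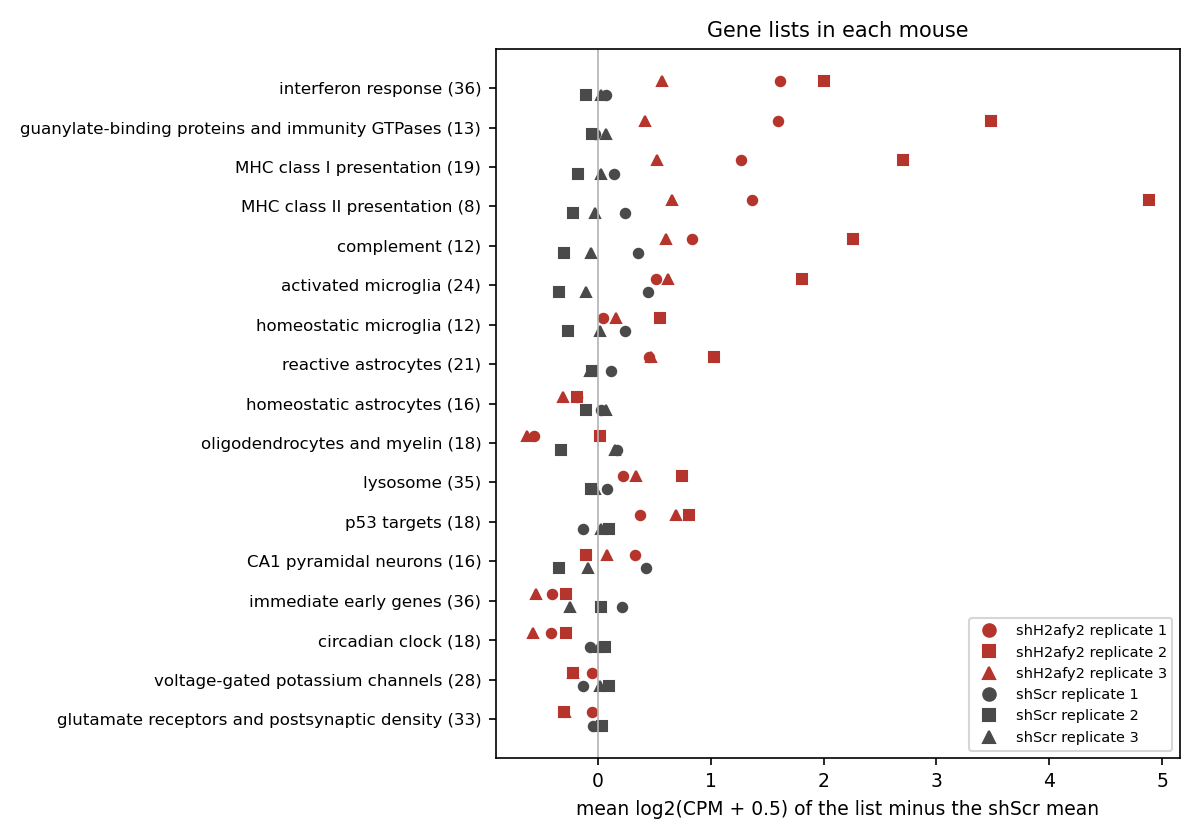
Mean log2(CPM + 0.5) of each gene list in each mouse minus the mean of the 3 shScr mice, with the number of genes measured in brackets, shH2afy2 mice in red drawn above shScr mice in grey. Replicate 2 is the highest shH2afy2 mouse for MHC class II, complement and activated microglia, while the 3 shH2afy2 mice lie closer together for p53 targets, immediate early genes and the circadian clock.

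Immediate early genes, transcription factors and synaptic regulators that neurons switch on with activity, had mostly negative fold changes in shH2afy2 mice, and several fell. Of 36 measured members 28 had negative fold changes, with a median of -0.47 (-0.54 without replicate 2 and -0.53 without shScr replicate 3), 13 did not overlap with shH2afy2 lower, edgeR called 7 as lower and 0 as higher, and DESeq2 called 3 as lower. Of the members at an unadjusted p under 0.05 by edgeR, 15 were lower and 2 higher. Fos, a subunit of the AP-1 factor (chr12:85473890-85477273), fell to 4.31, 7.17 and 2.49 CPM in shH2afy2, against 28.9, 25.1 and 11.7 CPM in shScr mice (-2.23, SE 0.44, edgeR adjusted p = 0.0775). Egr2, a zinc-finger factor of the same early wave, fell to 1.25, 1.74 and 1.02 CPM in shH2afy2, against 8.87, 9.79 and 4.70 CPM in shScr mice (-2.53, SE 0.34, edgeR adjusted p = 0.0714). Egr1, its relative, fell to 149, 138 and 114 CPM in shH2afy2, against 379, 312 and 219 CPM in shScr mice (-1.18, SE 0.20, edgeR adjusted p = 0.0721). In these 3 genes shScr replicate 3 was the lowest control and shH2afy2 replicate 3 the lowest depleted mouse, and the groups did not overlap. The list summed to 2761, 2095 and 1764 CPM in shScr replicates 1 to 3. Without shScr replicate 1 the fold changes of Fos, Egr2 and Egr1 were -1.99, -2.44 and -0.99.

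Other members of the wave fell less or did not pass. Fosb measured 5.90, 7.38 and 5.83 CPM in shH2afy2 and 9.77, 14.6 and 13.9 CPM in shScr mice (-0.99, SE 0.20, edgeR adjusted p = 0.0818). Homer1, a postsynaptic scaffold with an activity-induced short form, measured 146, 108 and 121 CPM in shH2afy2 and 205, 204 and 192 CPM in shScr mice (-0.68, SE 0.12, edgeR adjusted p = 0.0739). Arc, which drives the internalisation of AMPA receptors, measured 96.8, 89.0 and 87.8 CPM in shH2afy2 and 480, 158 and 107 CPM in shScr mice, and its fold change of -1.44 did not pass (edgeR adjusted p = 0.175). The spread of Arc lay in the controls, where shScr replicate 1 was 3 times as high as replicate 2. Without shScr replicate 1 the fold change was -0.54 for Arc and -1.16 for Fosb. Npas4, an activity-dependent factor, overlapped between groups at 4.10, 4.85 and 2.26 CPM in shH2afy2 and 19.8, 4.74 and 2.35 CPM in shScr mice, and Junb likewise at 69.6, 70.0 and 66.7 CPM, against 166, 72.1 and 65.0 CPM. The study lists Egr1 and Fos as lower in shH2afy2 mice on these libraries, so their falls are not independent evidence.

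Genes of the circadian clock also had mostly negative fold changes. Of 18 clock genes 17 had negative fold changes (median -0.45, and -0.52 without replicate 2), 9 did not overlap with shH2afy2 lower, and edgeR called 2. Per2, a repressor of the clock, fell to 22.0, 21.6 and 16.9 CPM in shH2afy2, against 31.4, 31.3 and 33.6 CPM in shScr mice (-0.67, SE 0.13, edgeR adjusted p = 0.0752), and Bhlhe41, another repressor, to 42.2, 50.7 and 39.7 CPM, against 75.4, 62.0 and 64.1 CPM (-0.60, SE 0.12, edgeR adjusted p = 0.0818). Hlf, a PAR leucine zipper factor under clock control, was called by DESeq2, with 91.1, 136 and 68.8 CPM in shH2afy2 and 144, 232 and 244 CPM in shScr mice (-1.06, DESeq2 adjusted p = 0.00365). The core activators Clock, with 0.13, and Arntl, with -0.12, were called by neither test. The hour at which each mouse was killed is not given in the sources used here.

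**Figure D5:**
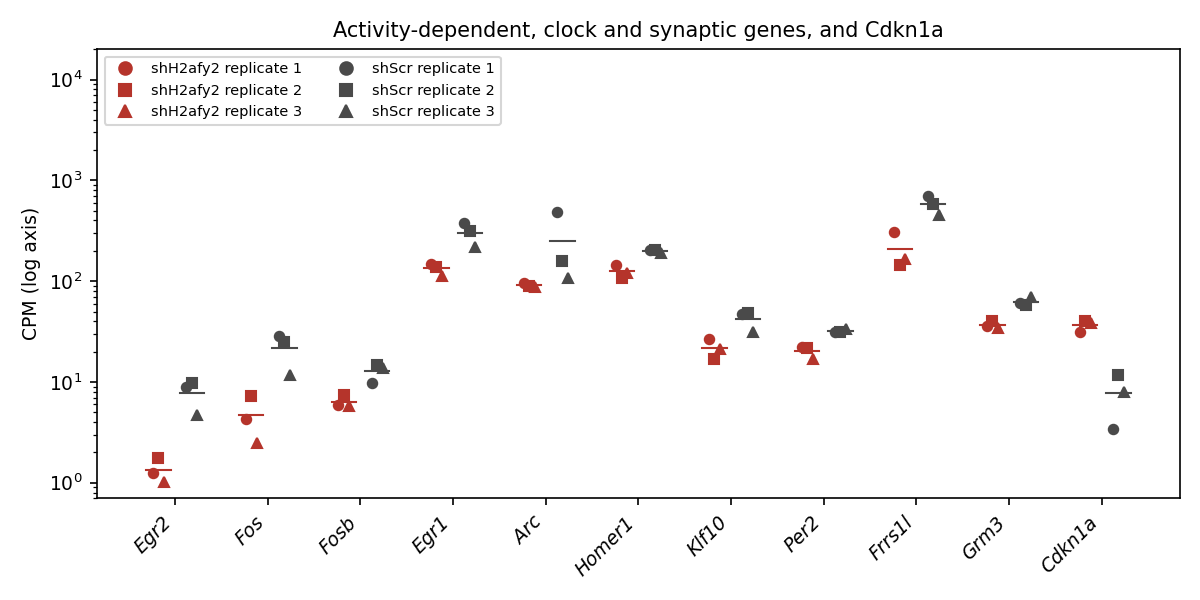
CPM of each mouse on a log axis for immediate early genes, Per2, the synaptic genes Frrs1l and Grm3, and Cdkn1a, with shH2afy2 mice in red left of shScr mice in grey and bars for group means. Cdkn1a lies between 31.1 and 40.3 CPM in shH2afy2 and between 3.39 and 11.7 CPM in shScr mice, and the other genes drawn are lower in every shH2afy2 mouse than in every shScr mouse.

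Several channel genes of neurons fell. Of 28 voltage-gated potassium channel genes, 22 had negative fold changes (median -0.13) and edgeR called 3, all lower. Kcna2, the axonal channel Kv1.2, fell to 179, 170 and 139 CPM in shH2afy2, against 233, 282 and 254 CPM in shScr mice (-0.65, SE 0.13, edgeR adjusted p = 0.0752). Among 26 sodium and calcium channel genes edgeR called 2 as lower, Cacna1i, the T-type channel Cav3.3 (-1.06, SE 0.20, edgeR adjusted p = 0.0752), and Cacng3, an auxiliary subunit of AMPA receptors (-0.67, SE 0.10, edgeR adjusted p = 0.0714). Scn4b, the sodium channel subunit beta 4, is one of the striatal markers high in shScr replicate 3, and its fold change of -1.94 became -0.56 without that mouse.

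Single genes of glutamate and neuromodulator receptors fell as well. Frrs1l, which takes part in the assembly of AMPA receptors, fell to 309, 145 and 165 CPM in shH2afy2, against 693, 585 and 456 CPM in shScr mice (-1.48, SE 0.30, edgeR adjusted p = 0.0794). Grm3, a metabotropic glutamate receptor, fell to 35.9, 40.7 and 34.0 CPM in shH2afy2, against 60.3, 58.6 and 69.2 CPM in shScr mice (-0.76, SE 0.11, edgeR adjusted p = 0.0714). Of 36 neuromodulator receptor genes edgeR called 2 as lower and 1 as higher, where it called 2.08% of all genes tested as lower and 2.04% as higher. Htr1b, the serotonin receptor 1B, fell to 7.36, 4.54 and 5.77 CPM in shH2afy2, against 28.3, 12.9 and 31.4 CPM in shScr mice (-2.03, SE 0.35, edgeR adjusted p = 0.0739), and Crhr1, the receptor of corticotropin-releasing hormone, to 6.74, 6.80 and 7.75 CPM, against 12.3, 18.1 and 14.0 CPM (-1.05, SE 0.18, edgeR adjusted p = 0.0721). Adra1d, an alpha-1 adrenergic receptor, rose to 125, 89.1 and 136 CPM in shH2afy2, against 73.0, 55.5 and 44.6 CPM in shScr mice (1.02, SE 0.21, edgeR adjusted p = 0.0818). The median of the neuromodulator list was -0.43 with all mice and -0.14 without shScr replicate 3.

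Single axon guidance genes of the class 3 semaphorin system were called in both directions. Sema3a, a repulsive cue, fell to 6.74, 8.23 and 8.27 CPM in shH2afy2, against 13.3, 18.2 and 17.5 CPM in shScr mice (-1.07, SE 0.17, edgeR adjusted p = 0.0714). Plxnd1, a plexin receptor, fell to 24.0, 36.4 and 28.6 CPM in shH2afy2, against 43.3, 60.8 and 73.7 CPM in shScr mice (-0.99, SE 0.23, edgeR adjusted p = 0.0907). Nrp1, the receptor subunit that binds Sema3a, rose to 81.0, 76.3 and 75.2 CPM in shH2afy2, against 59.1, 58.0 and 50.9 CPM in shScr mice (0.47, SE 0.08, edgeR adjusted p = 0.0739). The other 11 of 14 measured genes were not called by edgeR, which called 2.08% of all genes tested as lower and 2.04% as higher. The median of the list was -0.04. Its groups did not overlap in 2 genes with shH2afy2 higher and in 2 with shH2afy2 lower, where 13.3 and 12.7% of all genes tested did so.

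The 3 genes with the smallest edgeR adjusted p were Tfrc, Fam189b and Epop, which was described above. Tfrc, the transferrin receptor through which cells take up iron (chr16:32608920-32632794), rose to 267, 279 and 347 CPM in shH2afy2, against 114, 123 and 124 CPM in shScr mice (1.31, SE 0.12, edgeR adjusted p = 0.0425, DESeq2 adjusted p = 1.62e-17). Fam189b, a membrane protein (chr3:89183143-89189295), rose to 63.1, 71.0 and 73.7 CPM in shH2afy2, against 36.9, 36.8 and 35.2 CPM in shScr mice (0.94, SE 0.09, edgeR adjusted p = 0.0425). Vat1, a vesicle membrane protein (chr11:101458745-101466230), rose to 72.3, 129 and 104 CPM in shH2afy2, against 24.3, 25.7 and 30.6 CPM in shScr mice (1.93, SE 0.21, edgeR adjusted p = 0.0714). For Tfrc, Fam189b and Vat1 the 3 controls lay close together and every depleted mouse stood clear of them. Leaving out any 1 mouse, the log2 fold change of Tfrc lay between 1.19 and 1.38. Slc6a8, the creatine transporter, fell to 77.9, 71.7 and 66.2 CPM in shH2afy2, against 113, 107 and 116 CPM in shScr mice (-0.64, SE 0.09, edgeR adjusted p = 0.0714).

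Some lower genes depended on single controls. Coch, an extracellular matrix protein, had 3.33, 4.27 and 2.72 CPM in shH2afy2 and 4.22, 12.6 and 25.7 CPM in shScr mice, with -2.02 in edgeR and -1.28 without shScr replicate 3. Meis2, a homeobox factor, had 50.01, 52.1 and 64.6 CPM in shH2afy2 and 74.9, 102 and 161 CPM in shScr mice, with -1.02 and, without shScr replicate 3, -0.67. Coch and Meis2 belong to the genes that the study lists as lower in both depletions. DESeq2 called all 15 of that list as lower, and all 64 tested of the 69 names that could be matched to a gene in the longer list of genes higher in both. Both lists were chosen on these libraries, so these counts are not independent evidence.

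A further pattern was noticed among the lower genes after their values had been seen, and it is given as a description without a test. In 11 of the 39 lower genes of DESeq2 (28.2%, against 2.5% of all genes tested), shH2afy2 replicate 1 was at least 1.5 times as high as both other shH2afy2 mice, and in 0 of the 39 was it lower by that factor. Among the 325 genes that edgeR called lower, the same held for 20 (6.15%). The higher genes had another order of mice. Of the 83 higher DESeq2 calls that edgeR also tested, replicate 3 was lower than both others by that factor in 33 (39.8%). Replicate 1 was so in 9 (10.8%), and replicate 2 was higher than both others by that factor in 39 (47%). For the 11 lower genes replicate 1 held 53.5 to 69.7% of the shScr mean, where replicates 2 and 3 held 25.1 to 43.6%. Pgam1, a glycolytic enzyme, measured 87.2, 39.0 and 34.0 CPM in shH2afy2 and 125, 147 and 133 CPM in shScr mice. Stim1, the calcium sensor of the endoplasmic reticulum, measured 67.5, 43.1 and 39.7 CPM in shH2afy2 and 103, 104 and 104 CPM in shScr mice. Ptpn4, a tyrosine phosphatase, measured 61.9, 35.0 and 30.6 CPM in shH2afy2 and 105, 108 and 97.3 CPM in shScr mice. Also among them were Arhgap33, Capn5, Chd5, Frrs1l, March6, Mrps33 and Tusc3. H2afy2 itself had the same order of mice, with 71.1, 43.2 and 40.6% of the shScr mean. Since the genes were picked on the values that define the pattern, the share has no p-value.

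The positions of mH2A2 itself were taken from ChIP-seq of 3 untrained intact mice, other animals than those of the depletion, in which the authors called 58223, 61938 and 60588 broad domains that covered 326.9, 406.8 and 365.6 Mb of mm10. The start of a gene lay in a domain in at least 2 of the 3 mice for 19.9% of all genes tested, and for 28.4, 16.9 and 14.3% of those in the low, middle and high tertile of mean CPM. Of genes called by edgeR at 0.1, the share was 18.8% for those higher (60 of 319) and 14.2% for those lower (46 of 325) in shH2afy2 mice. Of DESeq2 calls it was 39.8% for those higher (33 of 83 that edgeR also tested) and 13.5% for those lower (5 of 37 with a position). Interferon genes had 38.9% (14 of 36) and MHC class I genes 42.1% (8 of 19), against 19.4% of immediate early genes (7 of 36), 17.1% of lysosomal genes (6 of 35) and 11.1% of p53 targets (2 of 18). Irf7 started in a domain in 3 of 3 mice, with 100% of its length covered, and so did C3, with 98.9% covered, whereas Rsad2, Gbp3, Tfrc, Fos and Cdkn1a started in a domain in 0 mice. These shares move with the level of a gene in the tissue, they were not tested, and a domain in bulk tissue does not say in which cells mH2A2 lay.

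Set beside the other depletion, which was measured against the same 3 shScr libraries, the 2 groups were compared with each other directly, without those controls. Between shH2afy2 and shH2afy mice edgeR at an adjusted p under 0.1 called 21.6% of 16294 genes as higher in shH2afy2 and 24.2% as lower. At the thresholds of 0.01 and 2 it called 260 higher and 1297 lower. This count was 2 when shH2afy replicate 1 was left out, 70 when shH2afy2 replicate 3 was and 167 when shH2afy2 replicate 1 was. The targets themselves differed. H2afy2 had a log2 fold change of -0.64 (edgeR adjusted p = 0.0646) and H2afy of 0.67 (edgeR adjusted p = 0.00346) in shH2afy2 over shH2afy. Immunoglobulin transcripts stood at 20.1, 543 and 12.8 CPM in shH2afy2 and at 1900, 2880 and 35.5 CPM in shH2afy mice, and the part of these cells in the difference was not tested.

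Interferon genes were lower in shH2afy2 than in shH2afy mice. Of the 36, edgeR at 0.1 called 35 as lower and 0 as higher, with a median log2 fold change of -2.74, and Rsad2 had -3.22 (edgeR adjusted p = 0.00154). Against shScr their medians were 1.67 in shH2afy2 and 4.69 in shH2afy. Of 21 reactive astrocyte genes 20 were lower in shH2afy2 than in shH2afy, and of 12 homeostatic microglia genes 12. CA1 pyramidal neuron genes went the other way, with 13 of 16 higher in shH2afy2 than in shH2afy and a median of 0.99. Against shScr their medians were 0.03 in shH2afy2 and -0.98 in shH2afy. The immediate early genes had 19 of 36 lower in shH2afy2 than in shH2afy and 2 higher, with Fos at -3.61 (edgeR adjusted p = 0.00188), while Egr1 had 0.03 (edgeR adjusted p = 0.864) and Arc -0.12 (edgeR adjusted p = 0.473). Tfrc was higher in shH2afy2 than in shH2afy, with 1.00 (edgeR adjusted p = 0.00261), and Ephx1 and Aen, both p53 targets, had 0.08 and 0.04 (edgeR adjusted p = 0.815 and 0.816).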

How the data were processed

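Counts of reads per gene were deposited by the authors for 55536 genes, 1 table per virus with a column for each of its 3 mice. Per the labels and the methods, the authors trimmed 100-bp read pairs with Trim Galore 0.4.5 and Cutadapt 2.6, aligned them to mm10 with STAR and counted with featureCounts, and tested with DESeq2 1.22.2. Whether counting used strand is not given in the sources used here, so overlapping genes on opposite strands and near-identical copies are uncertain. The log2 value of each mH2A2 domain, ChIP over input in the lists deposited by the authors, was not used, only its position. The tests were run in edgeR 4.0.16 under R 4.3.3 (filterByExpr with a least count of 10 and a least total of 15, TMM, quasi-likelihood test, Benjamini-Hochberg adjustment), with DESeq2 1.42.0 and limma 3.58.1 as alternatives. Only shH2afy2 and shScr libraries entered the main comparison. A standard error is the absolute log2 fold change over the square root of F. Mean log2 values of lists use CPM + 0.5. Total counts per mouse ranged from 9.95 to 18.8 M in the 6 libraries.

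Thresholds were those of the study (adjusted p under 0.01, fold change above 2), with a looser adjusted p under 0.1 because edgeR was known to call 0 genes. The 39 gene lists and the members named were chosen with earlier results of these data known. Named were histone variant genes, the 12 higher and 12 lower DESeq2 calls with the largest edgeR fold change, no overlap of groups and a mean of at least 1 CPM, the 5 higher and 5 lower genes with the smallest edgeR p, up to 6 members of each list by edgeR p, the highest immune genes of replicate 2, and genes the study lists in both depletions. Predicted genes were left out. Genes outside this rule (Drd2, Adora2a, the genes whose replicate 1 lay nearest to the controls, and list members cited for not changing or for the extremes of a list) were named after their values were seen. Each mouse was left out in turn, and other scaling, no filter, all 9 libraries in 1 fit, a replicate block and sample weights were tried. Samples with the same replicate number came from different mice. Between shH2afy2 and shScr mice the correlation of their deviations from the group means was -0.19, -0.18 and -0.21. None was positive, so the numbers gave no sign of pairing there, and shH2afy mice were not examined in this way. Tables of the training experiment and of other ChIP-seq were not used here. A few genes that the rule names are not reported here.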

Additional observations from a re-analysis of the deposited data

Results flagged for a closer look

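For 7 genes the fold changes of the 2 depletions against shScr had opposite signs, each with a size of at least 0.3, and shH2afy2 differed from shH2afy directly at an adjusted p under 0.01 by edgeR, among 142 genes examined. Both fold changes against shScr use the same 3 control mice, so only the direct difference is a test. Fos had a direct log2 fold change of -3.61 in shH2afy2 over shH2afy (edgeR adjusted p = 0.00188), with -2.23 in shH2afy2 and 1.45 in shH2afy against shScr. Gadd45b, an activity-induced gene of DNA repair and demethylation, had -1.68 (edgeR adjusted p = 0.00378), with -0.68 and 1.06. Slc6a8 had -0.99 (edgeR adjusted p = 0.00203) and Bhlhe41 -0.86 (edgeR adjusted p = 0.00416). Higher in shH2afy2 than in shH2afy were Spink10, a serine protease inhibitor, with 2.33 (edgeR adjusted p = 0.00181), Adra1d with 1.72 (edgeR adjusted p = 0.00268) and Fam189b with 1.65 (edgeR adjusted p = 0.00154). Gadd45b was not called against shScr in shH2afy2 mice.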

How the results depend on the processing

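The count of genes past the study's thresholds, 0 with edgeR, was 127 with DESeq2, 327 without a filter on low counts (276 of them among the genes of the filtered fit, 228 of the 327 higher) and 0 to 2 when 1 mouse was left out. It was 0 with DESeq2 size factors, all 9 libraries in 1 fit, sample weights or the replicate block. The 644 calls at 0.1 became 1836 without the filter, 2139 with limma-voom sample weights, 0 to 1077 with 1 mouse left out, and 0 with a replicate block, whose smallest adjusted p was 0.179 and which gave H2afy2 a log2 fold change of -0.99. The block spends 2 degrees of freedom on numbers that gave no sign of pairing shH2afy2 with shScr mice. DESeq2 called 67 to 191 genes with 1 mouse left out. The fold change of H2afy2 was -1.25 to -0.80 with 1 mouse left out. The direct contrast of shH2afy2 with shH2afy, 1557 genes, gave 2143 with DESeq2, 2237 with the block and 2 to 2090 with 1 mouse left out. Leaving out shH2afy2 replicate 2 and shScr replicate 3 together, chosen after seeing the data, left 0 edgeR calls at 0.1, 45 DESeq2 calls and -0.82 for H2afy2. Of 141 named genes, 1 changed direction, Ighm, with -0.02 to 3.36 when 1 mouse was left out (-0.02 without shH2afy2 replicate 2) and -0.30 in that last setting. Under DESeq2, 38 of the named genes that edgeR did not call had an adjusted p under 0.1, with no fold threshold. Depth limits genes near 0 in shScr, such as Lcn2 and Igkc, whose fold changes rest on few counts.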

Other observations

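Of the 13 striatal markers summed above, Ppp1r1b, the phosphatase regulator DARPP-32, measured 36.3, 35.6 and 40.9 CPM in shH2afy2 and 59.5, 48.0 and 443 CPM in shScr mice, and Pde10a, a striatal phosphodiesterase, 82.4, 69.9 and 70.4 CPM, against 96.8, 76.5 and 429 CPM. Their log2 fold changes of -2.29 and -1.43 were not called by edgeR, and became -0.50 for Ppp1r1b and -0.21 for Pde10a without shScr replicate 3.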
